A study of Mus musculus with 10 samples.

Results

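The genes described here are 10 components of the Hippo signalling pathway (Yap1, Wwtr1, Tead1, Tead2, Tead3, Tead4, Lats1, Lats2, Stk3 and Sav1), chosen by name from the RNA-seq tables of the study and matched by Ensembl gene ID. They are 10 of the 55487 genes in those tables. The study mapped R-loops (RNA paired with one strand of DNA) in E14, a mouse embryonic stem cell line, by the nuclease-based methods MapR and BisMapR, and sequenced RNA of the same line in 3 replicates. Every value below comes from these 3 RNA-seq replicates, which form a single group, so genes are compared with each other and replicates with each other; the 7 samples of R-loop mapping were not used here. Per the labels, the cells were untreated beyond their culture medium, which held 15% serum, LIF, a GSK inhibitor at 3 µM and a MEK1/2 inhibitor at 1 µM. The labels name no feeder cells and do not say whether the replicates were separate cultures, so the spread between them may be technical.

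In the Hippo pathway, the kinase encoded by Stk3 (MST2) acts with the scaffold Sav1 to activate the kinases Lats1 and Lats2. These phosphorylate the coactivators YAP (Yap1) and TAZ (Wwtr1), which are then held in the cytoplasm and degraded. Unphosphorylated YAP and TAZ enter the nucleus and act through the DNA-binding proteins TEAD1 to TEAD4, since they bind no DNA themselves. In the early mouse embryo, YAP with TEAD4 switches on trophectoderm genes in the outer cells, and active Hippo signalling prevents this in the inner cells from which embryonic stem cells derive. RNA levels do not show the phosphorylation or the location of any of these proteins.

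The core recognition motif of TEAD proteins, read as CATTCC or, from the opposite strand, as GGAATG, was looked for in the promoters of the members themselves, taken from RefSeq (GRCm38.p6) as the 250 bases upstream of each annotated start. The table held 7 of the 10 members, with 11 windows in all, and 4 members (Yap1, Wwtr1, Sav1 and Tead3) had the motif in at least 1 window. It was in 6 of the 11 windows, some of which overlap: both Wwtr1 windows hold the same match. Over all 32851 windows of that length, 12.6% held it. Of the Tead3 windows, 1 has a single match, 182 bases upstream, and is not shown. The windows of both coactivators and of the scaffold Sav1 are shown, each with a single match. It lies 141, 136 and 106 bases upstream of the start for Yap1, Wwtr1 and Sav1 (170 bases from the other annotated start of Wwtr1). Each shown window is printed in the direction of transcription, from the minus strand, with the motif in capitals. The Yap1 window lies at chr9:8004597-8004846, the Wwtr1 window at chr3:57575911-57576160 and the Sav1 window at chr12:69987003-69987252.
Yap1: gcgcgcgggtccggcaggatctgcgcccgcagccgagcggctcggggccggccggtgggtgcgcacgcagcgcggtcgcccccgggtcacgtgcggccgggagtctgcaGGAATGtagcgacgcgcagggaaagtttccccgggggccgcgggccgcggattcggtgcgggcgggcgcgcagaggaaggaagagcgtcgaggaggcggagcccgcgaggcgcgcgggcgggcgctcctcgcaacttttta
Wwtr1: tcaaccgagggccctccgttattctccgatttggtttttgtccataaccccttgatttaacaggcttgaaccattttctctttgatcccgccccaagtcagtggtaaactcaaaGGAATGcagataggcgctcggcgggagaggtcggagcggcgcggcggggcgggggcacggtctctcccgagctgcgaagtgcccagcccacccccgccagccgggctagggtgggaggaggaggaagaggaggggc
Sav1: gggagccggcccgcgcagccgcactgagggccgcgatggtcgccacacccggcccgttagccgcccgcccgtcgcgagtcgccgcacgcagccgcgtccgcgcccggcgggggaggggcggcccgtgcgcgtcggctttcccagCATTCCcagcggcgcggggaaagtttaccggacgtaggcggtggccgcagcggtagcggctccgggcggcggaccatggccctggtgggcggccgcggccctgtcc
The windows of Yap1 and Sav1 were 76.4% and 79.2% G and C, and that of Wwtr1 61.6%, against a median of 52.4% over all windows. A match describes the letters only and says nothing of binding.

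Of the 10 members, 8 had a mean of at least 1 TPM, a unit in which counts are divided by effective length before every library is brought to the same total. Among protein-coding genes, 44.1% reached that level. Genes of effective length under 100 nt held 60.3% to 65.8% of TPM in the replicates. Leaving them out of the total raised the TPM of the other genes by 2.52-fold, 2.93-fold and 2.77-fold in replicates 1, 2 and 3, and all 10 members then had a mean of at least 1. A mean of at least 10 TPM was reached by 2 members, Tead2 and Tead1, and by 14.0% of protein-coding genes. In order of mean TPM the members ran Tead2, Tead1, Yap1, Tead4, Wwtr1, Stk3, Sav1, Lats1, Lats2 and Tead3. Replicates 1, 2 and 3 had 11420425, 6467405 and 5787357 estimated counts in total. Replicate 1 gave the highest TPM for 9 members and replicate 3 the lowest for all 10. The same shift ran through the libraries: over 9683 expressed protein-coding genes, the median deviation of log2 TPM from the gene's mean was 0.31, -0.005 and -0.29 in replicates 1, 2 and 3. Ratios of genes within a replicate, used below, are free of that shift. An exact two-sided sign-flip test of 3 such ratios cannot go below p = 0.25, so the number of replicates with the same direction is given in its place.

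**Figure D1:**
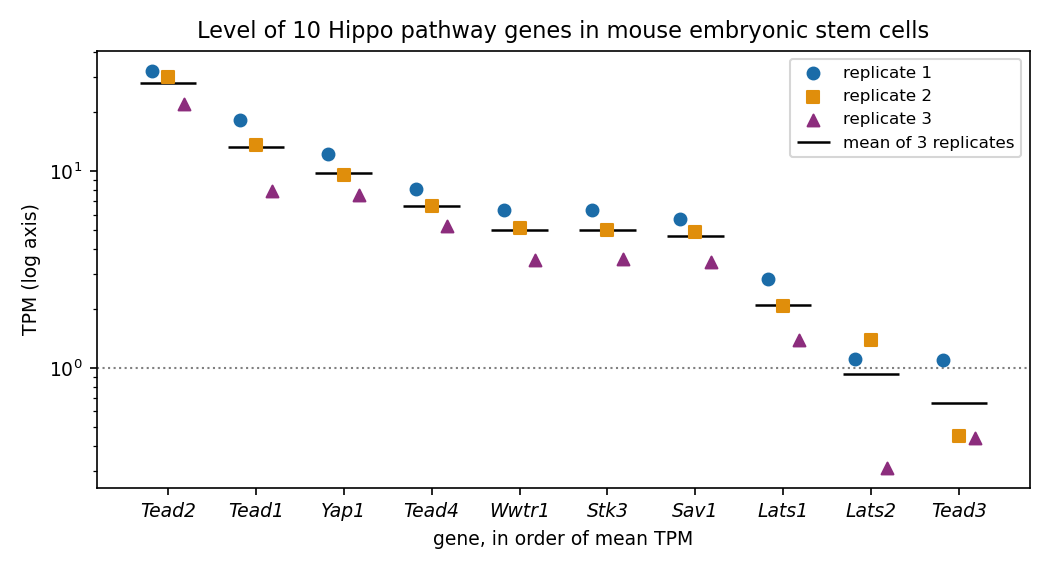
TPM (log axis) of the 10 Hippo pathway genes in the 3 replicates, with the mean as a bar and a dotted line at 1 TPM. Tead2 is highest at a mean of 28.0 TPM, and Lats2 and Tead3 have means under 1 TPM.

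In TPM, Stk3 and Sav1 of the kinase cascade were close together and the LATS kinases lay below them. Stk3 (ENSMUSG00000022329, chromosome 15, 34875496 to 35178921) had 6.34, 5.03 and 3.58 TPM in replicates 1, 2 and 3, a mean of 4.98 ± 1.38 (SD, n = 3). Sav1 (ENSMUSG00000021067, chromosome 12, 69965012 to 69987002), which binds MST kinases through its C-terminal domain, had 5.67, 4.89 and 3.43 TPM, a mean of 4.66 ± 1.14 (SD, n = 3). These ranges overlapped, and the log2 ratio of Stk3 to Sav1 within a replicate was 0.09 ± 0.06 (SD, n = 3). Stk4 (MST1), the paralog of Stk3, was the more abundant of the pair at 10.15, 7.02 and 7.0 TPM. The log2 ratio of Stk3 to Stk4 was -0.70 ± 0.24 (SD, n = 3), lower in 3 of 3 replicates and with ranges of TPM that did not overlap.

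Lats1 (ENSMUSG00000040021, chromosome 10, 7681214 to 7716460) had 2.82, 2.05 and 1.39 TPM from 431, 231 and 141 estimated counts. All 3 values lay below every value of Sav1. The log2 ratio of Sav1 to Lats1 was 1.15 ± 0.14 (SD, n = 3) in TPM and 0.93 ± 0.20 (SD, n = 3) in counts divided by the longest annotated transcript, but -0.16 ± 0.20 (SD, n = 3) in CPM, the count scaled to the library total with no account of length. Lats2 (ENSMUSG00000021959, chromosome 14, 57689662 to 57758388), the other LATS kinase and itself a known YAP target, had 1.11, 1.38 and 0.31 TPM from 28, 11 and 9 counts. Exact Poisson 95% intervals of these counts, which cover counting error only, ran from 18.6 to 40.5, from 5.49 to 19.7 and from 4.12 to 17.1. Lats1 was above Lats2 in 3 of 3 replicates and the ranges of TPM did not overlap (1.39 against 1.38 at their closest), but the margin was uneven, with a mean log2 ratio of 1.22 ± 0.66 (SD, n = 3).

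The size of the gap between Lats1 and Lats2 depended on the length given to Lats2. The length column of the tables is, in RSEM output, the mean length of the gene's transcripts weighted by their estimated abundance. For Lats2 it was 1070, 565.4 and 1664 nt in replicates 1, 2 and 3, whereas its 9 transcripts in GENCODE vM21 ran from 219 to 5191 nt. Replicate 2, with the shortest length, had the highest TPM of Lats2 although it had 11 counts. The ratio of the longest to the shortest estimate was 2.94, against a median of 1.10 over 9006 expressed protein-coding genes with several transcripts. With counts divided by the longest annotated transcript of each gene in place of TPM, Lats1 exceeded Lats2 by 9.93-fold rather than 2.34-fold, with a log2 ratio of 3.31 ± 0.26 (SD, n = 3). The direction was the same on both scales, and the spread between replicates was smaller on the second.

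**Figure D2:**
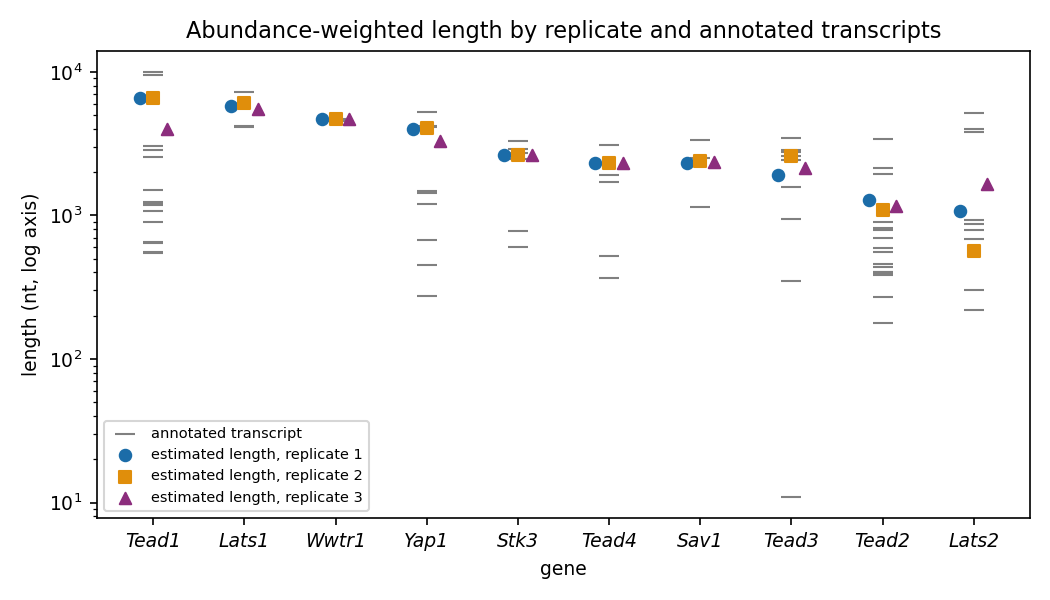
Abundance-weighted length of each gene by replicate (coloured symbols) beside the lengths of its annotated transcripts (grey dashes), in nt on a log axis. Lats2 ranges from 565.4 to 1664 nt over the replicates, and Tead1 is at 3998 nt in replicate 3 against 6549 and 6565 nt in replicates 1 and 2.

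Both coactivators were expressed, with Yap1 the higher. Yap1 (ENSMUSG00000053110, chromosome 9, 7931999 to 8004596) had 12.25, 9.58 and 7.57 TPM, a mean of 9.80 ± 2.35 (SD, n = 3), from 1287, 711 and 454 counts. Wwtr1 (ENSMUSG00000027803, chromosome 3, 57455649 to 57575910) had 6.35, 5.13 and 3.53 TPM, a mean of 5.0 ± 1.41 (SD, n = 3), from 785, 443 and 306 counts. Every value of Yap1 lay above every value of Wwtr1. The log2 ratio of Yap1 to Wwtr1 was 0.97 ± 0.10 (SD, n = 3), a 1.96-fold difference, higher in 3 of 3 replicates. It was 1.40-fold with counts divided by the longest transcript, so its size depended on the length used for Yap1. The estimated length of Yap1 was 4013, 4053 and 3292 nt. Its longest annotated transcript, of 5282 nt, is listed as a retained intron, and its longest protein-coding transcript has 4171 nt. For Stk3, Sav1 and Tead3 the longest transcript is likewise listed as a retained intron, which limits that scale for these genes. The length of Wwtr1 was 4697 nt in each replicate, that of the longer of its 2 annotated transcripts.

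The position of the coactivators among the other members differed in firmness. The log2 ratio of Yap1 to Tead4 was 0.55 ± 0.04 (SD, n = 3), higher in 3 of 3 replicates although the ranges of TPM overlapped. Likewise the log2 ratio of Tead4 to Wwtr1 was 0.42 ± 0.12 (SD, n = 3) and that of Tead1 to Yap1 0.37 ± 0.27 (SD, n = 3), each positive in 3 of 3 replicates with overlapping ranges. The order of Tead4 and Wwtr1 depended on the length scaling: their log2 ratio was -0.03 ± 0.12 (SD, n = 3) in counts per longest transcript and -0.64 ± 0.12 (SD, n = 3) in CPM. That of Tead1 to Yap1 was 0.04 ± 0.51 (SD, n = 3) in counts per longest transcript, with Tead1 lower in replicate 3. Wwtr1 and Stk3 were not separated in TPM, with a log2 ratio of 0.003 ± 0.024 (SD, n = 3), but Wwtr1 was higher in 3 of 3 replicates in counts per longest transcript, at 0.35 ± 0.03 (SD, n = 3). The median over the 10 members, with Lats2 and Tead3 at means under 1 TPM included, was 4.99 TPM. It was 0.457 TPM over all protein-coding genes and 5.73 TPM over those with a mean of at least 1. In mean TPM among 21974 protein-coding genes, Yap1 ranked 3123 and Wwtr1 5299.

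Transcripts of all 4 TEAD genes were counted, and 3 of them reached a mean of 1 TPM. Tead2 (ENSMUSG00000030796, chromosome 7, 45215753 to 45233644), a TEAD gene active in early embryos, had 32.31, 29.85 and 21.83 TPM, a mean of 28.0 ± 5.48 (SD, n = 3). Tead1 (ENSMUSG00000055320, chromosome 7, 112679318 to 112906807), which is broadly expressed in tissues, had 18.05, 13.55 and 7.95 TPM, a mean of 13.2 ± 5.06 (SD, n = 3). Tead4 (ENSMUSG00000030353, chromosome 6, 128224288 to 128300823), the family member required for trophectoderm, had 8.09, 6.64 and 5.23 TPM, a mean of 6.65 ± 1.43 (SD, n = 3). All values of Tead2 lay above those of Tead1 and Tead4, and Tead4 was below Yap1 in each replicate.

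Tead3 (ENSMUSG00000002249, chromosome 17, 28331671 to 28350817) was the lowest member by mean TPM, at 1.1, 0.45 and 0.44 TPM, although Lats2 was lower in replicate 3. These came from 53, 21 and 17 counts, with exact Poisson 95% intervals from 39.7 to 69.3, 13.0 to 32.1 and 9.90 to 27.2. In TPM, Tead3 and Lats2 were not separated: the log2 ratio of Lats2 to Tead3 was 0.35 ± 0.96 (SD, n = 3) and changed sign between replicates. On the scales that do not use the estimated length, Lats2 was the lower of the pair in 3 of 3 replicates, with a log2 ratio of -1.30 ± 0.07 (SD, n = 3) in counts per longest transcript and -0.89 ± 0.01 (SD, n = 3) in CPM.

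Of the summed TPM of the family, Tead2 held 58.3% ± 3.73, Tead1 26.5% ± 3.95, Tead4 13.8% ± 0.829 and Tead3 1.33% ± 0.484 (SD, n = 3). The order of Tead1 and Tead2 depended on the length scaling. In TPM, Tead2 exceeded Tead1 by 2.20-fold and was higher in 3 of 3 replicates. In CPM, Tead1 exceeded Tead2 by 2.37-fold in 3 of 3 replicates, at 274.8, 255.3 and 100.7 CPM against 87.1, 82.3 and 74.3. With counts divided by the longest annotated transcript (9964 nt for Tead1 and 3396 nt for Tead2), Tead1 was higher in replicates 1 and 2 and Tead2 in replicate 3. The estimated length of Tead2 was 1273, 1086 and 1171 nt, which is at most 0.375 of its longest transcript, and 17 transcripts were listed for it. Tead4 stayed between Tead2 and Tead3 on each scale, with Tead2 above it by 4.17-fold in TPM and 1.82-fold per longest transcript.

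**Figure D3:**
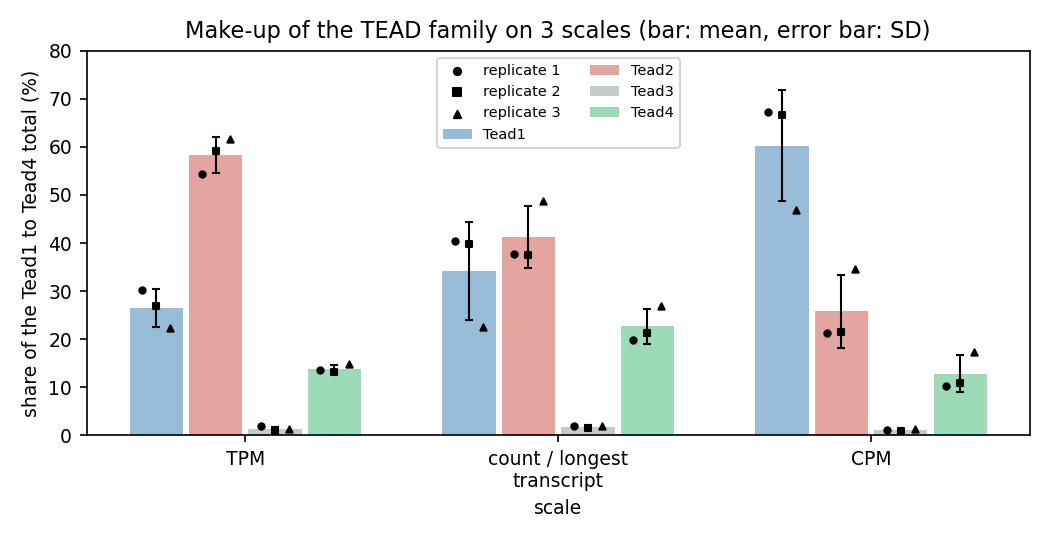
Share (%) of the Tead1 to Tead4 total held by each gene in TPM, in counts divided by the longest annotated transcript, and in CPM; bars are means, error bars SD and symbols the 3 replicates. Tead2 holds 58.3% in TPM and 25.8% in CPM, while Tead1 holds 26.5% and 60.3%.

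In counts scaled for library size, Tead1 was the member that varied most between replicates; in TPM, Lats2 and Tead3, which have few counts, had larger coefficients of variation, at 59.6% and 57.0% against 38.4% for Tead1. Its TMM-scaled CPM (CPM after edgeR's composition scaling) was 262.9, 248.8 and 109.8 in replicates 1, 2 and 3. The mean of replicates 1 and 2 was 2.33-fold that of replicate 3, and replicates 1 and 2 lay close together. By edgeR's goodness-of-fit test, which asks whether a gene varies more than genes of similar abundance, Tead1 had an adjusted p-value of 0.0366 (Benjamini-Hochberg over 12577 genes). It was the 1 of 10 members called, and 1.84% of all genes tested were called. The adjusted p-value of each of the other 9 members was 1. Once the trend of each replicate with gene length was removed, the adjusted p-value of Tead1 was 0.0594, over the threshold of 0.05. It ranged from 0.0271 to 0.999 over 7 alternatives, and was 0.141, 0.21 and 0.999 without replicate 1, 2 and 3, so the call held in none of these 3 fits of 2 libraries each.

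Replicate 3 held fewer counts from long genes throughout the library. In the decile of longest genes the median deviation of replicate 3 was -0.15 on the log2 scale, and in the decile of shortest genes it was 0.23. The long members shared the sign of the longest decile, at -0.81 for Tead1, -0.28 for Lats1, -0.22 for Yap1 and -0.13 for Wwtr1. Shorter members were also negative in replicate 3, at -0.15 for Tead3, -0.14 for Lats2, -0.10 for Stk3, -0.08 for Sav1 and -0.009 for Tead2. Tead4 was at 0.001. The sign was thus not particular to the long members. Over 1084 genes within 20% of the length of Tead1, the median deviation of replicate 3 in CPM without TMM scaling was -0.25. The estimated length of Tead1 also differed, at 6549, 6565 and 3998 nt, and 2.99% of expressed genes with several transcripts had a larger ratio of longest to shortest estimate. Of the 17 Tead1 transcripts in the tables, 2 were not in GENCODE vM21, and the 15 others ran from 546 to 9964 nt.

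The steadiest members were Tead4 and Tead2. Tead4 had 39.97, 40.99 and 40.50 TMM-scaled CPM, and Tead2 83.4, 80.2 and 81.0. Their replicates differed by far less on this scale than those of Tead1, and neither shared its low value in replicate 3.

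**Figure D4:**
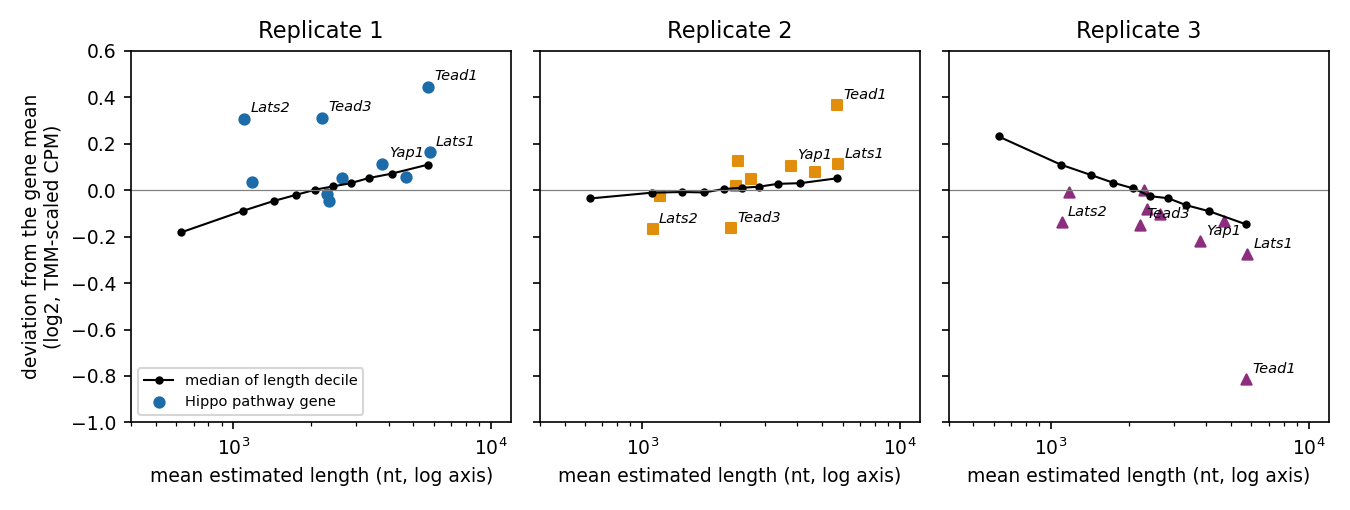
Log2 deviation of TMM-scaled CPM from the mean of the gene against mean estimated length (log axis), by replicate, for the 10 members (coloured symbols) and as the median of each length decile of all genes tested (black line). In replicate 3, Tead1 lies at -0.81 where the decile of longest genes has a median of -0.15.

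Sequence shared with other genes was most extensive for Lats2 and Sav1. All 10 members had whole-number counts in every replicate, as did 83.2% of expressed protein-coding genes; a fractional count shows that reads were divided between genes. Of the 50-base words of Lats2 transcripts, 41.2% also occurred in Gm49361, an overlapping protein-coding gene on the same strand with 0 counts in each replicate. For Sav1 the share was 24.7%, all with Atl1, which overlaps its end on the opposite strand and had 70, 27 and 29 counts. The strand setting of the counting is not given in the sources used here, so reads in the overlap of Sav1 and Atl1 are uncertain. The share was at most 1.35% for the other members, and Tead3 and Tead4, paralogs, had 10 words in common.

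The wider pathway was described from lists of named genes. Of 14 upstream kinases, adaptors and scaffolds, 14 had a mean of at least 1 TPM, against 44.1% of protein-coding genes. Their median was 5.12 TPM. The highest were Stk38, an NDR kinase related to LATS, at 25.5 ± 8.44 TPM (SD, n = 3), Mob1a, the coactivator of LATS kinases, at 24.5 ± 5.24 TPM, and Map4k4, a kinase that can act on LATS beside MST, at 23.7 ± 9.24 TPM. The lowest were Taok3 at 1.82 ± 0.727, Mob1b at 1.72 ± 0.735 and Rassf1 at 1.66 ± 0.668 TPM. Nf2, whose product merlin recruits LATS to the membrane, had 13.8 ± 3.87 TPM. Mob1a and Nf2 were thus higher than either LATS kinase in each replicate.

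All 10 genes of STRIPAK, a phosphatase complex that inactivates MST kinases, reached a mean of 1 TPM, against 44.1% of protein-coding genes. Their median was 7.08 TPM. Ppp2r1a, its scaffold subunit, was highest at 40.7 ± 11.4 TPM (SD, n = 3), followed by the catalytic subunit Ppp2ca at 24.6 ± 4.59 and Mob4 at 14.7 ± 3.77 TPM. Slmap, the adaptor to MST, had 5.19 ± 2.00 TPM, and Strn was lowest at 3.00 ± 0.894 TPM. Of 11 genes for turnover and cytoplasmic retention of YAP, 10 reached a mean of 1 TPM and 9 a mean of 10 TPM. Among protein-coding genes 44.1% and 14.0% did. The 14-3-3 genes Ywhaq, Ywhae and Ywhaz were highest, at 99.1 ± 17.3, 92.0 ± 15.5 and 57.6 ± 15.6 TPM. Fbxw11 and Btrc, which encode F-box proteins of the ligase that marks YAP for degradation, had 11.9 ± 2.40 and 6.05 ± 1.42 TPM. Sfn, the epithelial 14-3-3 gene, was lowest at 0.443 ± 0.0379 TPM. These proteins bind many phosphorylated partners, so their levels are not particular to YAP.

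Junction, polarity and cadherin regulators were less evenly expressed, with a median of 2.49 TPM. A mean of 1 TPM or more was reached by 9 of 14, or 64.3%, against 44.1% of protein-coding genes. Dlg1 was highest at 12.4 ± 2.64 TPM (SD, n = 3), then Llgl1 at 9.03 ± 3.15 and Ajuba, a LIM protein that restrains LATS, at 6.04 ± 1.27 TPM. The atypical cadherin genes Fat4, with 0 counts, and Dchs1, with 0, 1 and 0 counts, were at or below the floor of 3 counts in each replicate. Amot, whose product holds YAP at junctions of the early embryo, was also low at 0.153 ± 0.0208 TPM, from 24, 9 and 11 counts. Among the VGLL genes, cofactors that compete with YAP for TEAD, Vgll4 had 1.73, 0.93 and 1.13 TPM. Vgll3 had 10, 2 and 2 counts, Vgll2 had 1, 0 and 0, and Vgll1 had 0 in each replicate. Yap1 exceeded Vgll4 by a log2 ratio of 2.88 ± 0.31 (SD, n = 3).

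Most genes of a signature of YAP and TEAD targets had a mean under 1 TPM in the deposited values. The signature was drawn from human cancers and is listed here by its mouse orthologs. Of its 22 genes, 7 had a mean of at least 1 TPM, 31.8% against 44.1% of all protein-coding genes. The median of the list was 0.673 TPM, above the 0.457 TPM of all protein-coding genes. The threshold was not re-applied to this list with short genes left out of the total. That step raised the TPM of other genes by 2.52-fold to 2.93-fold, so listed genes not far below 1 TPM would then reach it. The count of 7 holds for the deposited TPM only. Myof, a membrane-repair protein gene, had 13.73, 11.32 and 9.07 TPM and was the 1 gene above a mean of 10 TPM. Asap1 followed at 6.19 ± 2.17 TPM (SD, n = 3), and Amotl2, an angiomotin gene, at 3.50 ± 1.12 TPM. Common reporters of YAP activity, picked out of the list with their values known, were lower than Myof, Asap1 and Amotl2. Ccn2 and Ccn1 came 9 and 10 in order among the 22 genes. Their means, 0.733 and 0.707 TPM, lay above the median of the list. Ccn1 (Cyr61) had 0.63, 0.9 and 0.59 TPM from 32, 32 and 21 counts, and Ccn2 (Ctgf) had 0.85, 0.86 and 0.49 TPM from 52, 37 and 19 counts. Ankrd1 had 0, 0 and 1 counts, below the floor of 3 counts. The lowest genes were Foxf2 with 1, 0 and 0 counts, Ccdc80 with 0, 1 and 0, and Rbms3 with 0 in each replicate; counts this low do not show absence. Lats2, a member, is also in this list.

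**Figure D5:**
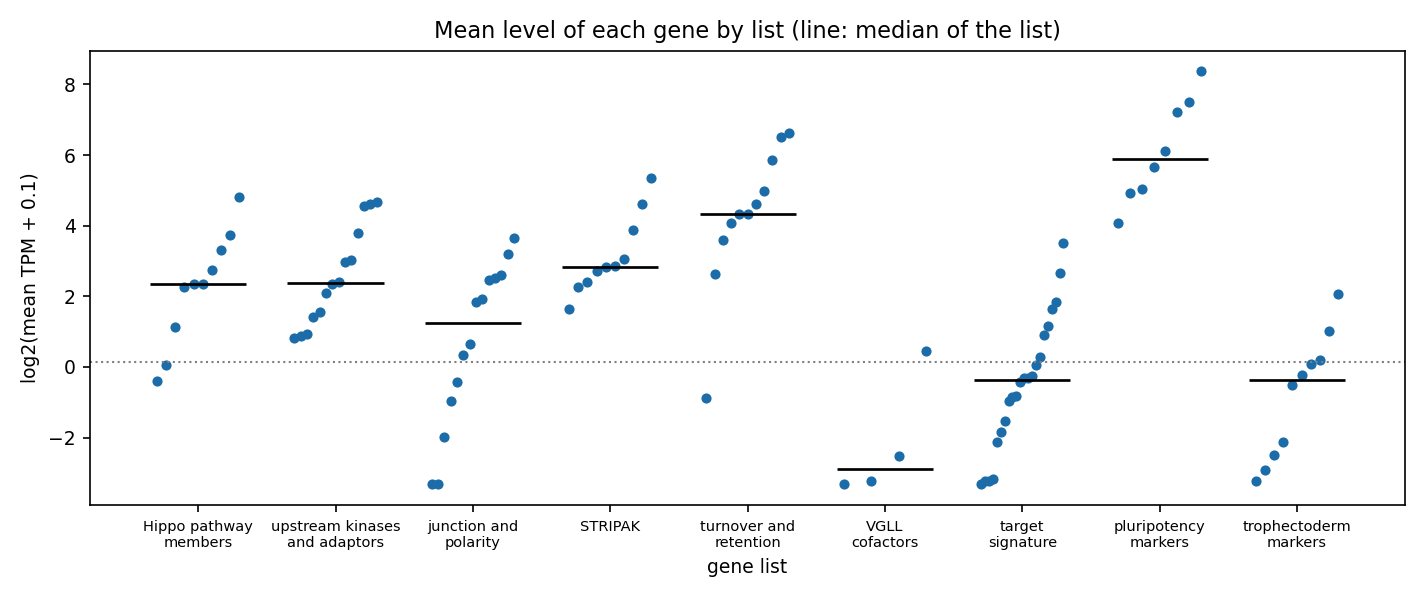
Mean level of each gene, as log2(mean TPM + 0.1), by list, with the median of the list as a bar and a dotted line at 1 TPM. The medians in TPM are 4.99 for the 10 members, 0.673 for the target signature and 59.5 for pluripotency markers.

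The labelled cell type was checked against marker genes. Of all protein-coding genes, 44.1% had a mean of at least 1 TPM and 14.0% a mean of at least 10 TPM. All 8 pluripotency markers had a mean of at least 10 TPM, with summed levels from 688.6 to 1060 TPM over the replicates. Of 10 trophectoderm markers, 3 reached a mean of 1 TPM (Tfap2c at 4.08 ± 1.02, Gata2 at 1.92 ± 1.03 and Krt8 at 1.05 ± 0.217 TPM; SD, n = 3), and their summed level ran from 7.71 to 12.4 TPM. Eomes was just below 1 TPM, at 0.953 ± 0.106 TPM from 78, 62 and 52 counts. Cdx2, the trophectoderm gene activated by TEAD4, was lowest with 0, 1 and 0 counts, below the floor of 3. Of 6 primitive endoderm markers none reached a mean of 1 TPM (summed level 0.51 to 1.16 TPM). Gata4 was highest, at 0.45 ± 0.187 TPM from 47, 19 and 12 counts, while Gata6 had 3, 5 and 1 counts. Of 8 fibroblast markers, 1 did (Thy1, at 2.50 ± 1.15 TPM). Pdgfrb was just below, at 0.977 ± 0.435 TPM from 203, 96 and 55 counts. Col1a1 had 20, 8 and 3 counts and Col1a2 had 0, 0 and 2, while Col3a1, Postn, Dcn and Lum had 0 in each replicate. The threshold was not re-applied to the marker lists with short genes left out of the total. In bulk RNA, fewer cells that express a gene and less RNA of it per cell cannot be told apart.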

How the data were processed

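RNA-seq tables of 3 replicates of E14 cells were used. Per the labels' protocols, total RNA was depleted of rRNA and made into directional libraries. STAR and RSEM and the build mm10 are named, without versions, in the submitters' processing notes; the annotation release and strand setting are not given in the sources used here. The authors deposited expected counts (estimated, not normalized) and TPM per gene, with abundance-weighted lengths; FPKM was not used. IDs were matched to GENCODE vM21 (GRCm38; 55227 matched, 260 not), whose coordinates are printed. For edgeR 4.0.16 (R 4.3.3), counts were rounded, filtered by filterByExpr and scaled by TMM. Replicate variability was the goodness-of-fit test under the trended dispersion. Ratios were log2 of (TPM + 0.1). Other steps used Python 3.11.15. The variability test was tried on simulated data of 3 replicates, with 12260 genes tested. It recovered 3, 39, 49 and 50 of 50 genes raised 2-fold, 4-fold, 8-fold and 16-fold in replicate 3, with 0 false calls. The simulation gave all genes 1 dispersion and no trend with length, and raised only genes with a mean over 50 counts. It therefore does not show how the test behaves with the length trend of the real libraries, or for a fall in replicate 3. A floor of 3 counts is 0.263, 0.464 and 0.518 CPM in replicates 1, 2 and 3. Named genes were the members, the 3 highest and 3 lowest of each list, genes of at least 10 TPM, paralogs in a ratio and cell type markers; Ccn1, Ccn2 and Ankrd1 were added with their values known, and 1 listed gene is not reported here by name. The members and lists were chosen with earlier results of these data known. Alternatives changed the length scaling, pseudocount, normalization (DESeq2 1.42.0 size factors), filter, dispersion and replicates.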

Additional observations from a re-analysis of the deposited data

How the results depend on the processing

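The 8 results of the plan were recomputed under 59 alternatives. A ratio counted as the same if it changed by no more than its SD over replicates. A ratio that moved further kept its direction unless it is called reversed. Of the 59 alternatives, 41 gave the same result, 13 moved, 4 weakened and 1 reversed. That reversal was the log2 ratio of Tead1 to Tead2, which was -1.14 in TPM and 1.24 in CPM, and moved to -0.31 with counts divided by the longest transcript; the alternative changes only the length by which a count is divided. On that scale and in CPM, in that order, the log2 ratio of Yap1 to Wwtr1 became 0.48 and 0.65, that of Tead2 to Tead4 0.86 and 1.01, that of Lats1 to Lats2 3.31 and 4.03, and the share of Tead2 in the family 41.3% and 25.8%. The ratio of Stk3 to Stk4 became -1.48 in CPM. A pseudocount of 1 gave 0.85 for Yap1 to Wwtr1 and 1.92 for Tead2 to Tead4. A mean of at least 5 TPM was reached by 5 members in place of 8 at 1 TPM, while 10 members reached 1 TPM with short genes out of the denominator, 10 reached 1 CPM and 9 reached 1 TPM without replicate 3. Chosen after seeing the data, the ratios of 7 further pairs of neighbours in the order of levels were recomputed on the same scales (14 alternatives), and 5 reversed, by construction through the length used: Tead4 to Wwtr1 from 0.42 to -0.033 per longest transcript and -0.64 in CPM, Lats2 to Tead3 from 0.35 to -1.30 and -0.89, and Sav1 to Lats1 from 1.15 to -0.16 in CPM. The number of members varying between replicates by edgeR's test fell from 1 to 0 after the length trend was removed (1 at an unadjusted p under 0.05), and was 0 in each of the 3 leave-one-out fits (1 at an unadjusted p under 0.05 without replicate 1, 1 without replicate 2 and 0 without replicate 3); such fits have 2 values per gene. The cause of the change after length correction was not tested. It stayed at 1 with DESeq2 size factors, without a filter and with a common dispersion. Depth limits Lats2 and Tead3 most, at 9 and 17 counts in replicate 3.

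No paired analysis was possible because a single group was analysed, so the replicate numbers it shares with other groups pair nothing here.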
